A study of Mus musculus with 5 samples.

Results

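Transcripts of integrin chains were measured in CD4+ T cells of mice whose transgenic T cell receptor recognises MOPC315, a myeloma line. Members were the 10 genes Itga4, Itga5, Itga6, Itgae, Itgal, Itgav, Itgb1, Itgb2, Itgb3 and Itgb7, of 18194 genes with a probe set of their own, and every probe set that the platform annotation assigns to them, 30 of 45101. The activated group had 3 arrays of CD4+ GB113+ T cells, taken on day 8 from the axillary lymph nodes that drained a subcutaneous injection of 100000 MOPC315 cells in 250 µl of growth factor-reduced Matrigel. Nodes of 12 to 15 mice were pooled in each experiment, and the cells were sorted to a purity of at least 95%. The naive group had 2 arrays of tumor-specific CD4+ T cells from pooled lymph nodes of naive mice in 2 independent experiments, processed in the same way according to the series' design text. All mice of both groups were adult TCR-transgenic SCID animals on the Balb/c background, 7 to 12 weeks old, and SCID mice make few lymphocytes beside the transgenic T cells. The protocol fields of the naive samples repeat the tumor challenge text, whereas their titles, their descriptions and the design text call them naive. Mice given Matrigel without tumor cells were not analysed here. The samples are described as biological replicates from independent experiments, and their number, 3 against 2, limits the precision of every value.

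Integrins are cell surface receptors made of an alpha and a beta chain, and a chain reaches the surface only with a partner. On T cells, Itgal pairs with Itgb2 to form LFA-1, which binds ICAM proteins on antigen-presenting cells and vessel walls. Itga4 pairs with Itgb1 to bind VCAM1 and fibronectin, or with Itgb7 to bind MAdCAM1 on the vessels of the gut. Itgae, known as CD103, pairs with Itgb7 and binds E-cadherin on epithelial cells. Itga5 and Itga6 pair with Itgb1 and bind fibronectin and laminin, and Itgav pairs with Itgb3 and other beta chains to bind vitronectin. A transcript level does not give the level of a heterodimer on the surface.

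In activated cells the transcripts of Itgal and Itgb1 were higher, and those of Itgae, Itgb7, Itgb3 and Itga4 were lower. Of these chains only Itgae and Itgb7 kept their calls in all 17 alternative fits (other settings, or 1 array left out). The calls of Itga4 and Itgb3 each rested on 1 probe set, of 5 and 2 tested. The call of Itgb1 was lost in 6 of the 17 alternatives. These were the fits without the filter, without the intensity trend and with averaged probe sets, and others that left out 1 array each. A gene was represented by its brightest probe set, and all 10 members passed the filter, which asked for an intensity above the 40th percentile of the array on at least 2 of 5 arrays. At gene level 2 of 10 rose, 4 fell and 4 did not pass, by limma with a Benjamini-Hochberg adjusted p under 0.05 over all 12861 tested genes. Over all these genes 10.5% passed, 6.38% as higher and 4.14% as lower. Of the 30 probe sets of the chains 22 were bright enough to be tested, of which 4 rose, 5 fell and 13 did not pass, beside 7.75% that passed over all tested probe sets (4.8% higher and 2.94% lower). The intensities of the groups did not overlap for 7 of the 10 chains, 3 of them higher and 4 lower in activated cells, and over all tested genes this held for 41%, with 20.3% higher and 20.7% lower. The median log2 fold change was -0.49 over the 10 members and -0.03 over all tested genes. In bulk samples, fewer cells of a type and less RNA per cell cannot be told apart. Differences are activated minus naive on the scale of log2(intensity + 16), where the added 16 steadies dim values and understates their changes. The chains were chosen with earlier results of these data known, so the counts describe them and carry no test of the family.

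**Figure D1:**
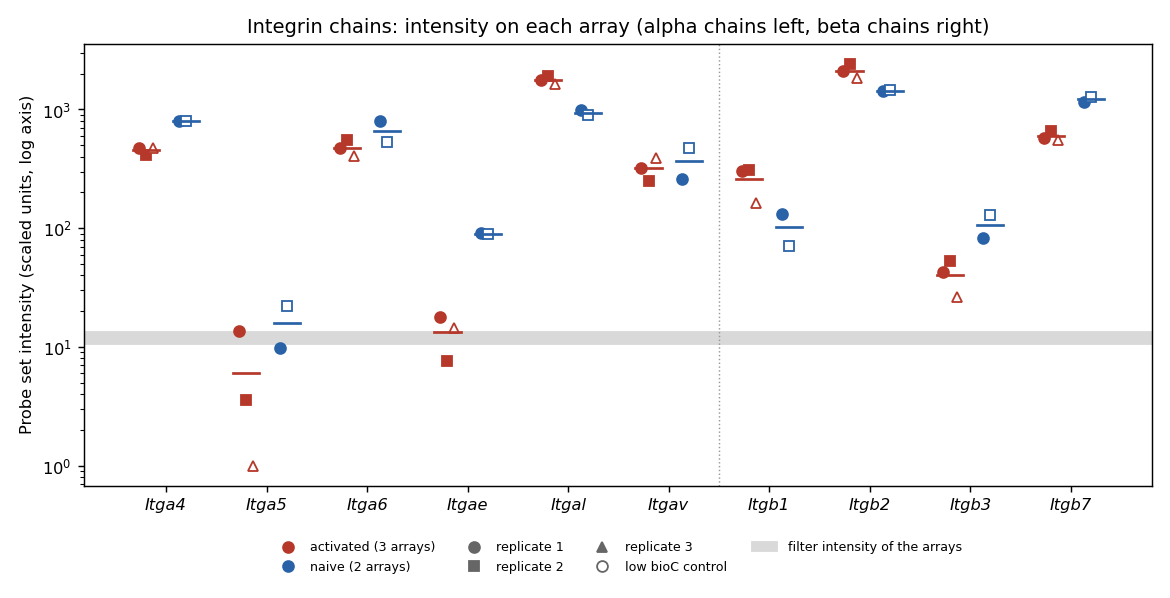
Intensity of each integrin chain on its brightest probe set, on a log axis, for the 3 activated arrays (red, left) and the 2 naive arrays (blue, right). Symbols mark the replicate, open symbols the arrays with a low bioC hybridisation control, bars the group means, and the grey band the filter intensity of the 5 arrays, from 10.6 to 13.4. The groups lie apart for 7 of the 10 chains and overlap for Itga5, Itga6 and Itgav.

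Promoters are shown for Itga4 and Itgb7, whose products form one heterodimer and whose transcripts were both lower, and for Itgb1, the alternative partner of Itga4, which was higher. Each is the 250 bases before an annotated start, from RefSeq on build GRCm38.p6, read 5′ to 3′ on the gene's strand. RefSeq promoters were matched for 5 of the 10 members. Capitals mark every match, on either strand, to 4 motifs: the RUNX core TGTGGT, the ETS core AGGAAG, the GC box GGGCGG and the CACCC box CCACCC.
Itga4: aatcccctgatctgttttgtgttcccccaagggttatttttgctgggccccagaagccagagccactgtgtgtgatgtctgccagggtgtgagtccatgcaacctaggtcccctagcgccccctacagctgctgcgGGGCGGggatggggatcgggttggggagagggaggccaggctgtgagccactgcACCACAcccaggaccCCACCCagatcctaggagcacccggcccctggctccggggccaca
Itgb7: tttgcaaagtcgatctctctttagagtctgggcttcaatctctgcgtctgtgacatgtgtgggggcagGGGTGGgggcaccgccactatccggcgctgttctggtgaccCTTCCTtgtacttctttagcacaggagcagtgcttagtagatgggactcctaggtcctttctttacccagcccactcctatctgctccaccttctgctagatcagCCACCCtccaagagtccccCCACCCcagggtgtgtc
Itgb1: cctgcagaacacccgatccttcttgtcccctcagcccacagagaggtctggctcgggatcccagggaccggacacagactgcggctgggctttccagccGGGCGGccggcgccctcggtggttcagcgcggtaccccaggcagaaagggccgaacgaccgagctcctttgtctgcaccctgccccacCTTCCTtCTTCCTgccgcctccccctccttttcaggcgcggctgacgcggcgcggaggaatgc
The Itga4 window is chr2:79255176-79255425 on the plus strand, the Itgb7 window chr15:102231936-102232185 on the minus strand and the Itgb1 window chr8:128685404-128685653 on the plus strand. Itgb7 has an annotated span that reaches 102233405, beyond this start. In the Itga4 window the RUNX core, the GC box and the CACCC box had 1 match each, and the ETS core had 0. The Itgb7 window held 3 matches to the CACCC box and 1 to the ETS core. In the Itgb1 window 2 matches to the ETS core and 1 to the GC box were found. No overlap between marked motifs occurred in the 3 windows. Of 32851 RefSeq promoter windows of the same length, 14.0% held the RUNX core, 29.5% the ETS core, 32.7% the GC box and 28.1% the CACCC box, so matches of this kind are frequent. The motifs were chosen after the changes of the genes were known, and a match is no evidence of binding.

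Itgal, the alpha chain of LFA-1, lies on chromosome 7 from 127296139 to 127335137 in GRCm38.p6. On its brighter probe set, 1435560_at, Itgal read an intensity of 1757.6, 1903.0 and 1641.2 in the activated samples and 983.9 and 890.6 in the naive samples. Every activated array lay above both naive arrays. The means were 1767 ± 131 (SD, n = 3) for activated samples and 937 ± 66.0 (SD, n = 2) for naive ones, a ratio of 1.89, and the log2 fold change was 0.90 ± 0.15 (SE; limma adjusted p = 0.00407). Its other probe set, 1425367_at, read 395.9, 380.2 and 454.9 in activated and 197.8 and 136.5 in naive samples, and rose by 1.24 (adjusted p over all probe sets 0.00446). Both probe sets of Itgal thus gave a rise. Without naive replicate 2 the gene's log2 fold change was 0.83 and the call was missed (limma adjusted p = 0.0511). It passed in each of the other 16 alternatives, at adjusted p from 0.00044 to 0.0348.

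Itgb2 encodes CD18, the beta chain of LFA-1 and of the other leukocyte integrins of its family. Its single probe set read 2115.6, 2413.2 and 1852.9 in the activated samples and 1419.7 and 1460.4 in the naive samples. These groups lay apart as well, with a ratio of means of 1.48. The log2 fold change of 0.55 ± 0.17 (SE, 95% interval 0.18 to 0.92) did not pass the test (limma adjusted p = 0.0648). It passed in 5 of 17 alternatives, with quantile normalization (adjusted p = 0.0403), when all probe sets of every gene were averaged (adjusted p = 0.0479), without activated replicate 3 (0.64, adjusted p = 0.0391), with the replicate number as a block (0.64, adjusted p = 0.00786) and with the bioC split as a block (0.53, adjusted p = 0.0235). The change of Itgal exceeded that of Itgb2 by 0.35 ± 0.08 (SD, n = 3 activated arrays) on the log2 scale, with all 3 activated arrays above both naive arrays. This difference between the 2 chains was not tested.

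Itgb1, the beta chain that pairs with Itga4, Itga5 and Itga6, lies on chromosome 8 from 128685654 to 128733579 in GRCm38.p6. Itgb1 read 305.6, 309.4 and 161.5 in the activated samples and 131.8 and 71.3 in the naive samples. The groups did not overlap, but activated replicate 3 and naive replicate 2 were each the lowest of their group. In means this was 259 ± 84.3 (SD, n = 3) in activated against 102 ± 42.8 (SD, n = 2) in naive cells, a ratio of 2.55 and a log2 difference of 1.22 ± 0.30 (SE; limma adjusted p = 0.0271). Of 6 probe sets of Itgb1, 3 were tested and the other 3 were dim. Probe set 1426918_at also rose, by 1.11, and 1427771_x_at lay at 0.99 without passing (adjusted p over all probe sets 0.154). Activated replicate 3 and naive replicate 2 also had a low signal of bioC, a bacterial transcript spiked into the hybridisation, whose mean log2 intensity was 9.51, 9.34 and 7.53 on activated and 9.52 and 7.80 on naive arrays. Within the 3 arrays of high bioC the log2 fold change of Itgb1 was 1.13, and within the 2 arrays of low bioC it was 1.02, with 1 naive array on each side. With that split as a block it was 1.08 (adjusted p = 0.000826), and blocking on replicate number gave 1.51 (adjusted p = 0.000181). The call was lost without activated replicate 1 (1.08, adjusted p = 0.0877), without activated replicate 2 (1.07, adjusted p = 0.114) and without naive replicate 2 (0.84, adjusted p = 0.238). It was also lost without the filter (adjusted p = 0.0774), without the intensity trend (adjusted p = 0.0667) and, at 0.64, with the mean of all 6 probe sets (adjusted p = 0.105).

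Itgae and Itgb7 form the receptor for E-cadherin, and both fell. Itgae lies on chromosome 11 from 73090505 to 73147449 in GRCm38.p6. On probe set 1447541_s_at, Itgae read 18.0, 7.6 and 14.4 in the activated samples and 91.3 and 88.5 in the naive samples. The activated values lay around the filter intensity of 10.6 to 13.4, whereas both naive arrays were clearly brighter. The ratio of means was 0.148, and the log2 fold change was -1.87 ± 0.24 (SE; limma adjusted p = 0.000679), which 34 of 12861 tested genes exceeded as a fall. Because the activated values are dim, the size depends on the pseudocount and was -2.74 with 1 and -0.995 with 64. The other probe set, 1449216_at, had 19.8, 15.0 and 11.9 on activated and 64.6 and 61.1 on naive arrays, and fell by 1.33 (adjusted p over all probe sets 0.00668). With probe sets left out whose ID marks shared sequence, Itgae was read from 1449216_at alone and still passed (limma adjusted p = 0.00381). Itgae passed in all 17 alternatives run, at adjusted p from 0.000264 to 0.0122. CD8 T cells are known to express Itgae, and a CD8 marker moved with it. Cd8b1, the CD8 beta chain, read 326.5, 246.8 and 275.0 in activated and 797.6 and 995.7 in naive samples and fell by 1.61 (limma adjusted p = 0.00028). Cd8a, the CD8 alpha chain, had 79.2, 24.4 and 18.7 on activated and 54.0 and 44.6 on naive arrays, with overlapping groups (adjusted p = 0.632). The summed level of these 2 markers ran from 271 to 406 on activated and from 852 to 1040 on naive arrays, and its part in the Itgae result was not tested. Dendritic cells of some kinds also carry Itgae. Their list summed to 234.9, 108 and 80.8 in the activated samples and 92.0 and 74.9 in the naive samples. Of its markers, Itgax and Siglech were higher on all activated arrays. Xcr1, too dim to be tested, was lower on all of them, and the groups overlapped for the rest. Epithelial markers summed to 60.9, 43.5 and 35.1 in the activated samples and 119.7 and 92.8 in the naive samples. Of the 5, 4 (Cdh1, Krt8, Krt18 and Krt19) were lower on all activated arrays, as were 20.7% of all tested genes. Of these Cdh1, which encodes E-cadherin, lay at -1.11 without passing (limma adjusted p = 0.0876), and Krt8 and Krt19 were too dim to be tested. Krt18 was at most 19.2 on activated and at least 19.4 on naive arrays. The part of dendritic cells in the Itgae result, and any link with the epithelial markers, was not tested.

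Itgb7, the shared beta chain of the gut-homing and E-cadherin-binding integrins, lies on chromosome 15 from 102215994 to 102233405 in GRCm38.p6. On its single probe set it read 571.7, 655.6 and 551.2 in the activated samples and 1159.0 and 1268.8 in the naive samples. The groups lay far apart relative to their spread, at 593 ± 55.3 (SD, n = 3) for activated samples and 1214 ± 77.6 (SD, n = 2) for naive ones. The ratio of means was 0.488 and the log2 fold change -1.02 ± 0.16 (SE; limma adjusted p = 0.00224). Itgb7 passed in all 17 alternatives, with log2 fold changes from -1.09 to -0.95. Itgae fell further than its partner, by 0.85 ± 0.39 on the log2 scale (SD, n = 3 activated arrays, relative to the naive mean), a difference that was not tested. Its size depends on the pseudocount, since Itgae and Itgb7 lay at -2.74 and -1.04 with 1 and at -0.995 and -0.962 with 64.

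Itga4, the alpha chain shared by the VCAM1 and MAdCAM1 receptors, lies on chromosome 2 from 79255426 to 79333114 in GRCm38.p6. On its brightest probe set, 1436037_at, it read 470.1, 413.8 and 475.4 in the activated samples and 797.9 and 794.9 in the naive samples. All activated arrays lay below both naive arrays, with a ratio of means of 0.569 and a log2 difference of -0.79 ± 0.15 (SE; limma adjusted p = 0.00771). The call rested on that probe set alone. The next brightest, 1456498_at, had 317.3, 147.1 and 199.3 on activated and 229.3 and 171.9 on naive arrays, with overlapping groups and a log2 difference of 0.08 ± 0.28 (SE; adjusted p over all probe sets 0.906). Probe sets 1421194_at and 1450155_at lay at -0.11 and 0.23, and 1427615_at, at or below 20.8 on every array, lay at -0.74 (adjusted p = 0.168). With all 5 probe sets averaged, Itga4 lay at -0.27 (limma adjusted p = 0.405). On 1436037_at the call was also missed without activated replicate 2 (-0.73, adjusted p = 0.0533), without naive replicate 1 (-0.79, adjusted p = 0.0501) and without naive replicate 2 (-0.80, adjusted p = 0.0602). The part of the transcript that each probe set reads was not analysed here.

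**Figure D2:**
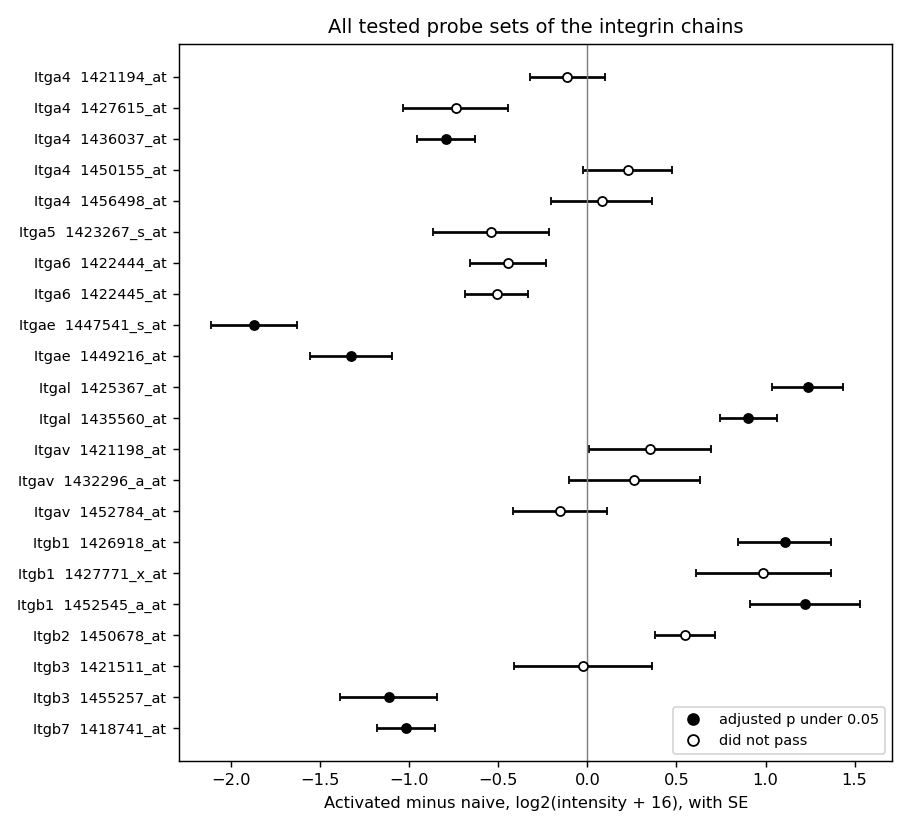
Difference between activated and naive cells for the 22 tested probe sets of the integrin chains, on the scale of log2(intensity + 16), with the standard error from the fit over all probe sets; filled points passed at an adjusted p under 0.05. Both probe sets of Itgae and of Itgal lie on the same side of 0, whereas those of Itga4 lie on both sides.

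The beta partners of Itga4 changed in opposite directions. Relative to the naive mean, the log2 ratio of Itgb7 to Itgb1 was -2.57, -2.39 and -1.76 in the activated samples and -0.44 and 0.44 in the naive samples. All 3 activated arrays lay below both naive arrays. For Itga4 against Itgb1 the ratio averaged -2.02 ± 0.57 (SD, n = 3) on activated arrays, with a naive SD of 0.53. For Itga4 against Itgb7 it averaged 0.22 ± 0.24 with overlapping groups. Both ratios with Itga4 depend on its probe set 1436037_at, the only one called, since its other probe sets lay from -0.74 to 0.23. These ratios show unequal changes of the probe sets and give no ratio of molecules, and they were chosen after the values were seen and were not tested.

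Itga6, the laminin-binding alpha chain, was lower on average and did not pass. Its brighter probe set, 1422444_at, read 469.4, 552.5 and 409.0 in the activated samples and 797.3 and 529.4 in the naive samples. Activated replicate 2 exceeded naive replicate 2, so the groups overlapped, with a log2 fold change of -0.44 (95% interval -0.90 to 0.01; limma adjusted p = 0.22). On 1422445_at the values were 374.9, 456.9 and 488.0 on activated and 597.5 and 662.5 on naive arrays, without overlap, at -0.51 (adjusted p over all probe sets 0.121). Itga6 passed in 1 of 17 alternatives, with the bioC split as a block (-0.51, adjusted p = 0.0319). Without naive replicate 1 its log2 fold change was -0.16.

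Of the vitronectin receptor chains, Itgb3 fell and Itgav did not pass. Itgb3 read 42.5, 52.6 and 26.1 in the activated samples and 82.4 and 129.7 in the naive samples of probe set 1455257_at. The groups lay apart, with a ratio of means of 0.381 and a log2 difference of -1.11 ± 0.26 (SE; limma adjusted p = 0.023). Its second probe set, 1421511_at, was dim, at 26.3, 3.3 and 14.6 on activated and 5.3 and 25.6 on naive arrays, and lay at -0.03 (adjusted p over all probe sets 0.979). The call of Itgb3 was lost without activated replicate 3 (-0.92, adjusted p = 0.0541), without naive replicate 2 (-0.83, adjusted p = 0.213), without the filter (adjusted p = 0.0795) and with both probe sets averaged (-0.57, adjusted p = 0.206). Platelets are rich in Itgb3. The platelet and megakaryocyte markers summed to between 104 and 278 on activated and between 159 and 172 on naive arrays without a call among the 4 tested, of which 0 had an unadjusted p under 0.05 in limma. Of the 6 with a probe set, Itga2b read 34.3 to 64.2 over the 5 arrays, Gp1bb 12.7 to 33.3, Ppbp 2.8 to 15.9 and Gp9 1.7 to 11.5. The groups overlapped for each of these. Gp5 read 13.2, 11.2 and 16.6 in activated and 31.9 and 18.6 in naive samples. It was lower on all activated arrays, as were 20.7% of all tested genes, without passing (limma adjusted p = 0.325). Pf4, a platelet chemokine, read 20.3, 19.4 and 167.1 in activated and 69.2 and 50.8 in naive samples, with overlapping groups. The part of platelet RNA in the Itgb3 result was not tested. Itgav read 322.8, 251.2 and 386.8 in activated and 261.0 and 475.2 in naive samples of its brightest probe set, which overlap. Its log2 fold change was -0.15 (95% interval -0.72 to 0.41; limma adjusted p = 0.772), and the sign turned without activated replicate 2 (0.0022), without naive replicate 2 (0.26) and with all 5 probe sets averaged (0.15). Its 4 other probe sets were at or below 27.2 on every array.

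Itga5, the fibronectin receptor alpha chain, was near the lower end of the measurable range. Its brightest probe set read 13.6, 3.6 and 1.0 in the activated samples and 9.7 and 21.9 in the naive samples, and exceeded the filter intensity on 2 of the 5 arrays. The other 3 probe sets of Itga5 did not exceed 10.3 on any array and were not tested. At such levels the log2 fold change of -0.54 (limma adjusted p = 0.365) does not show whether the transcript differed.

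**Figure D3:**
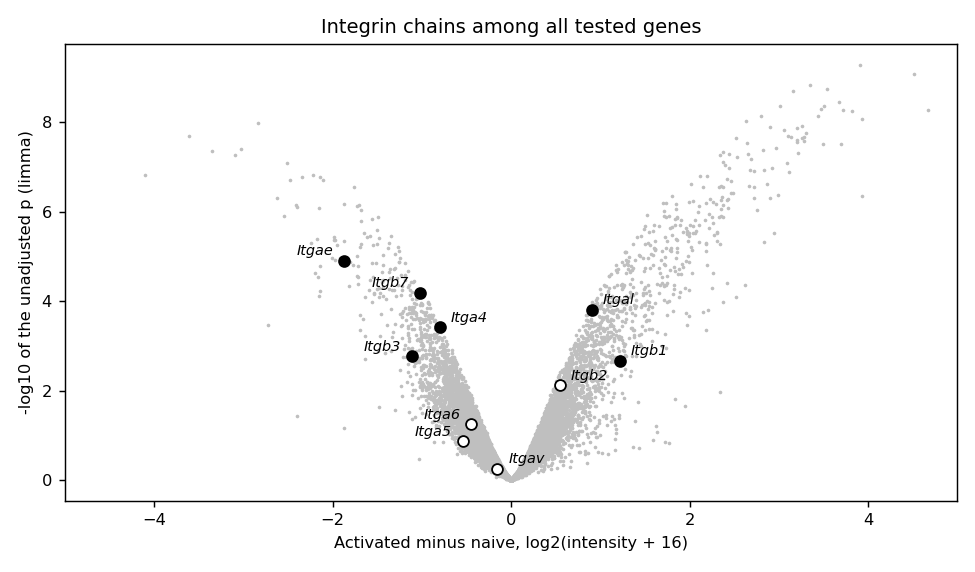
The difference between activated and naive cells on the scale of log2(intensity + 16), against minus log10 of the unadjusted p from limma, for all 12861 tested genes (grey) and the 10 integrin chains (filled where they passed, open where they did not). Itgae lies farthest to the left of the chains, at -1.87, and Itgb1 farthest to the right, at 1.22.

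The size of each called change is set against all tested genes as a description. Of 12861 tested genes, 369 had a larger rise than Itgb1 and 651 a larger one than Itgal. For the falls, 171 genes exceeded Itgb3, 229 exceeded Itgb7 and 489 exceeded Itga4. The genes whose centred log2 values over the 5 arrays were nearest to those of Itgal, by Euclidean distance, were Pde4d (0.05), a cyclic AMP phosphodiesterase, Slc38a1 (0.06), a neutral amino acid transporter, Cox8a (0.10), a cytochrome c oxidase subunit, Unc119b (0.11) and Psat1 (0.11), an enzyme of serine synthesis. Nearest to Itgae were Lrrc75b (0.23), Neb (0.28), Tdrp (0.32), Spsb1 (0.32) and H2-Q10 (0.34). Of these, Spsb1 read 86.2, 69.1 and 81.1 in activated and 388.2 and 392.5 in naive samples, so its fall did not depend on values near the filter.

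Other integrin chains were mostly dim. Of 16 further chains, 14 had a probe set and 9 were tested, and 0 passed, by limma at an adjusted p under 0.05, with 3 at an unadjusted p under 0.05, which 3126 of all 12861 tested genes had. These were Itgb5, Itgax and Itga3. Itgb5, another partner of Itgav, read 514.7, 923.1 and 1214.1 in the activated samples and 310.8 and 528.6 in the naive samples. The ID of the probe set behind these values marks shared sequence, and with such probe sets left out Itgb5 was not among the tested genes. Whether the signal came from Itgb5 alone was not tested. Activated replicate 1 lay between the naive values, and the log2 fold change of 1.01 ± 0.33 (SE) did not pass (adjusted p = 0.081); it passed without activated replicate 1 (1.35, adjusted p = 0.0132), with the replicate number as a block (0.74, adjusted p = 0.00676) and with the bioC split as a block (1.14, adjusted p = 0.00508). Averaged over all its probe sets it lay at 0.30. Itgax, the dendritic cell integrin CD11c, had 98.4, 27.2 and 10.1 on activated and 4.7 and 9.0 on naive arrays (adjusted p = 0.188), with its highest value on activated replicate 1, and it passed without activated replicate 3 (1.63, adjusted p = 0.0434) and when blocked on replicate number (1.63, adjusted p = 0.00697). The remaining 7 tested chains, Itga2, Itga2b, Itga3, Itga7, Itga8, Itga9 and Itga10, had log2 fold changes from -0.67 to 0.36.

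Among genes that switch integrins on, 5 changed and 17 of the 22 tested did not pass. Inside-out signalling from the T cell receptor reaches integrins through the small GTPase Rap1, and talin and kindlin then bind the beta tail. In the list of this machinery 22 of 24 genes were tested, of which 2 rose and 3 fell, beside 6.38% and 4.14% of all tested genes; the median over the list was -0.07 on the log2 scale, against -0.03 over all genes. Tln1 (talin) lay at 0.11 and Fermt3 (kindlin-3) at -0.01, both named after their values were seen and neither past the threshold (adjusted p = 0.72 and 0.98). Cyth3, a guanine nucleotide exchange factor of the cytohesin family, read 388.5, 429.5 and 507.9 in activated and 215.2 and 210.0 in naive samples and rose by 0.99 (limma adjusted p = 0.00392), in all 16 alternatives in which it was tested. Rap1a itself rose by 0.62 (adjusted p = 0.0312). Its paralog Rap1b, named after its value was seen, lay at -0.39 without passing (adjusted p = 0.142). Rap1b read 2808.0, 2824.0 and 2726.6 in activated and 3741.1 and 3577.8 in naive samples, without overlap. Rapgef6, a Rap exchange factor, had 1248.4, 1350.1 and 1700.9 on activated and 2355.2 and 3028.2 on naive arrays and fell by 0.90 (adjusted p = 0.0119). Rasgrp2, the Rap1 activator CalDAG-GEFI, fell by 0.90 (adjusted p = 0.0263), and the protein kinase Prkd2, named after its value was seen, by 0.66 (adjusted p = 0.0206). Of these 5 calls, 4 were lost when single arrays were left out. Rap1a kept its call only without activated replicate 1, Rasgrp2 without activated replicate 3 or naive replicate 1, Rapgef6 without activated replicate 1 or 3 or naive replicate 1, and Prkd2 without activated replicate 3, among the arrays left out in turn. Over these 5 fits the log2 fold change ran from 0.58 to 0.68 for Rap1a, from -1.20 to -0.59 for Rasgrp2, from -1.08 to -0.72 for Rapgef6 and from -0.74 to -0.58 for Prkd2. Rap1a, Rasgrp2 and Prkd2 also lost their calls with median centring (adjusted p = 0.0579, 0.0544 and 0.053) and without the intensity trend (0.0781, 0.0665 and 0.0615), and Rap1a and Rasgrp2 without the filter (0.079 and 0.06).

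A further list, drawn up as brakes on integrin activation, had all 14 genes tested, of which 1 rose and 2 fell, with a median of -0.21; over all tested genes 10.5% passed. Rasa3, a GTPase-activating protein for Rap1, read 439.6, 557.4 and 513.1 in the activated samples and 1122.5 and 1436.1 in the naive samples. The groups lay apart, and Rasa3 fell by 1.31 (limma adjusted p = 0.000905), a call kept in all 17 alternatives. The other called genes are not plain brakes. Cyth4, a cytohesin exchange factor like Cyth3, fell by 0.88 (adjusted p = 0.0241), and Tns1, which encodes tensin 1, a link between integrin tails and actin, rose by 0.92 (adjusted p = 0.0158). When each array was left out in turn, Cyth4 passed in 1 of 5 fits, without activated replicate 1, and Tns1 in 3 of 5, losing its call without activated replicate 2 (0.90) and without naive replicate 2 (0.76). Over the same 5 fits Cyth4 lay between -1.01 and -0.73. Cyth4 also lost its call with the replicate number as a block (-0.73, adjusted p = 0.0531), and Tns1 when probe sets marked for shared sequence were left out (0.54, adjusted p = 0.214). Without the filter neither passed (adjusted p = 0.0641 for Cyth4 and 0.0598 for Tns1).

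In the list of adhesion complex and outside-in signalling genes, 24 of 30 were tested, 2 rose and 1 fell, with a median of 0.06, a share of calls near the 10.5% over all tested genes. The Src family kinase Fyn rose by 0.73 (limma adjusted p = 0.0242), the tyrosine kinase Zap70 by 0.71 (adjusted p = 0.0187), and the actin crosslinker Actn1 fell by 0.73 (adjusted p = 0.0389). All 3 passed in only 1 of 5 fits with an array left out, which for each was the fit without activated replicate 3. Over the 5 fits Fyn lay between 0.62 and 0.86, Zap70 between 0.64 and 0.79 and Actn1 between -0.92 and -0.55, and Zap70 lay at 0.08 when its probe sets were averaged. None of the 3 passed without the intensity trend (adjusted p = 0.0698, 0.0581 and 0.093), Fyn and Actn1 not without the filter (0.0511 and 0.0877), and Actn1 not with median centring (0.0791). Of the integrin ligands, 19 of 28 were tested, 0 rose and 3 fell, with a median of -0.24; over all tested genes 4.14% fell. Icam1, a ligand of LFA-1, read 255.8, 145.5 and 177.6 in activated and 402.6 and 405.4 in naive samples and fell by 1.04 (adjusted p = 0.012), and L1cam, a neural adhesion molecule that binds several integrins, fell by 1.22 (adjusted p = 0.00461). Icam2, named after its value was seen, fell by 0.60 (adjusted p = 0.0491) and lost that call whichever array was left out (-0.75 to -0.44), and in 10 of 17 alternatives in all. L1cam lost it without naive replicate 2 (-1.04) and with averaged probe sets (-0.50), and Icam1 without activated replicate 2 (-0.87) and without either naive array (-1.05 and -1.04). All 13 tested membrane partners of integrins, tetraspanins among them, missed the adjusted threshold, with 4 at an unadjusted p under 0.05 in limma, as had 3126 of all 12861 tested genes.

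The labelled cell type was checked against its markers. All 7 T cell markers with a probe set were above the filter on at least 2 arrays. Cd4 read 1049.4, 1119.4 and 915.4 in activated and 778.2 and 732.6 in naive samples (limma adjusted p = 0.121). B cell markers summed to between 71.4 and 80.5 on activated and between 55.7 and 64.8 on naive arrays. Plasma cell and myeloma markers summed to between 1270.1 and 1420.4 on activated and between 1275.8 and 1387.5 on naive arrays, mostly from Xbp1. Of the 6 tested, Irf4 rose by 2.49 (limma adjusted p = 6.51e-05) and Prdm1 fell, at -1.11 (adjusted p = 0.0172). Over all tested genes 10.5% passed. Whether RNA of the injected line was present was not tested. Monocyte and macrophage markers summed to 2964, 141 and 853 in the activated samples and 392 and 212 in the naive samples, so activated replicate 1 stood apart, and neutrophil markers did so too, at 914 against at most 97.2 elsewhere. NK cell markers summed to 1484, 586 and 884 in the activated samples and 490 and 511 in the naive samples. Among them Ncr1, an NK cell receptor, read 265.3 on activated replicate 1 and at most 11.2 on any other array. Klre1 likewise read 93.9 on that array and at most 15.8 elsewhere. Klrd1 read 404.9, 276.2 and 409.1 in activated and 298.0 and 434.2 in naive samples, which overlap. Itga2 and Klra8 were at or below 21.9 on every array. Eomes, a transcription factor of NK cells and of some T cells, read 696.4, 281.6 and 440.9 in activated and 154.9 and 43.4 in naive samples and rose by 2.19 (limma adjusted p = 0.00857). Myeloid cells and NK cells can both carry Itgal, Itgb2 and Itgb1. The part of such cells was not tested. Without activated replicate 1 the log2 fold changes of these chains were 0.91, 0.55 and 1.08, and 1 member rose (Itgal) and 4 fell in that fit. Within the arrays of high and of low bioC signal, the log2 fold changes were 0.88 and 0.87 for Itgal, 0.66 and 0.34 for Itgb2, -1.92 and -1.78 for Itgae, and -0.90 and -1.18 for Itgb7. They were -0.83 and -0.72 for Itga4, -0.64 and -1.79 for Itgb3, -0.63 and -0.36 for Itga6, -0.09 and -1.16 for Itga5, and 0.12 and -0.29 for Itgav, the only chain whose sign differed between the 2 sets of arrays.

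**Figure D4:**
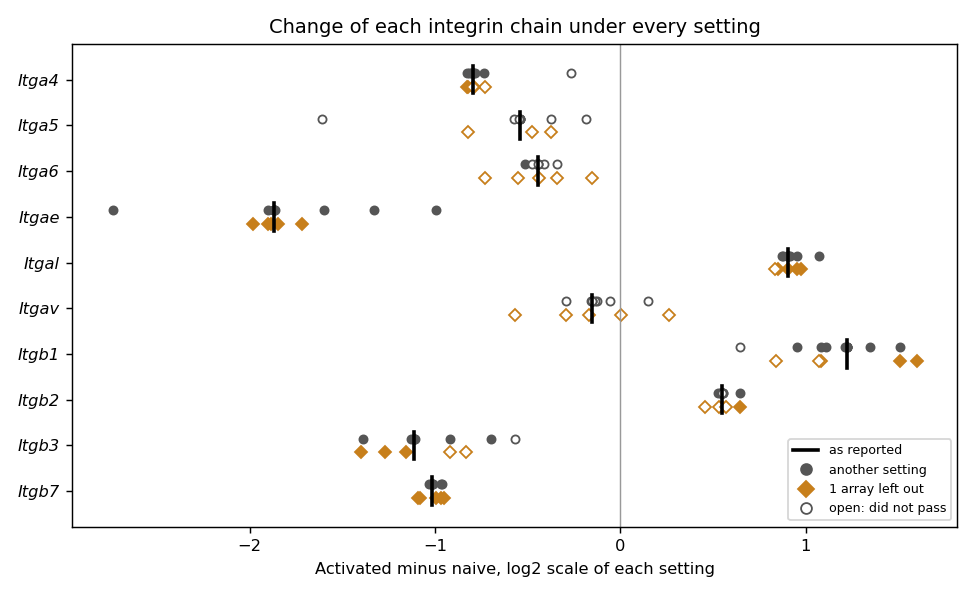
Difference between activated and naive cells for each integrin chain as reported (black bars), under other settings (grey circles) and with 1 array left out in turn (orange diamonds), each on the log2 scale of its setting; filled symbols passed at an adjusted p under 0.05. Itgae and Itgb7 are filled throughout, and Itgav crosses 0.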

How the data were processed

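Total RNA was extracted with Trizol, labelled with biotin and hybridised to Affymetrix mouse arrays, per the labels' protocols. The deposited values are the authors' linear intensity per probe set, 1 column for each of the 5 arrays. Their trimmed mean, with 2% removed at each end, was 100.0 on every array, so a change here is one relative to the whole array. The software that made the values is not given in the sources used here. Raw scans were not analysed here.

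Values were used as log2(intensity + 16). Of 45101 probe sets, 34958 had 1 gene symbol in the platform annotation, 932 several, 9147 none and 64 were array controls, and only those with 1 symbol named a gene. A gene was represented by its probe set of highest mean log2 value. Probe sets above the 40th percentile of their array on at least 2 arrays were tested with limma 3.58.1 in R 4.3.3 (lmFit, eBayes with an intensity trend, activated against naive, Benjamini-Hochberg over all tested, threshold 0.05), a fit tested on simulated data. Correlations across genes were 0.970 to 0.977 between arrays of a group and 0.929 to 0.944 between groups.

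The members, the gene and marker lists and the tests were chosen with earlier results of these data known. Named were all members and their probe sets, in each list up to 2 rises and 2 falls, the other chains that passed the filter, and the 5 genes nearest to the rising and the falling member of smallest p. Markers, Prkd2, Rap1b, Icam2, Tln1, Fermt3 and promoter motifs were named outside this rule. Alternatives changed the normalization, filter, pseudocount, variance model, choice of probe sets and blocks, or left out each array.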

Additional observations from a re-analysis of the deposited data

How the results depend on the processing

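Itgae and Itgb7 kept their direction and their call under all 17 alternatives run at gene level. The reported counts were 2 chains higher and 4 lower, 4 probe sets higher and 5 lower, and 820 genes higher and 533 lower. Without the filter 1 chain and 2 probe sets were higher and 349 genes lower. Without the intensity trend 1 chain and 2 probe sets were higher. With the bioC split as a block 859 genes were lower, and with all probe sets averaged 2 chains were lower. When each array was left out in turn, 0 to 3 chains and 1 to 5 probe sets were higher, 2 to 4 chains and 3 to 4 probe sets were lower, and 463 to 714 genes were higher and 185 to 508 lower; the lowest gene counts came without naive replicate 2. Without a naive array, the lone naive array is assumed to vary like the activated ones. With the replicate number as a block, 975 genes were higher and 793 lower, and 3 chains were higher and 4 lower. Same-numbered arrays had deviations from group means correlated at 0.17 and -0.13, so the numbers were not taken as a pairing. Activated replicate 3 has no counterpart. The deviations of the 2 naive arrays mirror each other. Activated replicates 1 and 2 correlated with naive replicate 1 at 0.17 and 0.13. Activated replicate 3 correlated with naive replicate 2 at 0.31. That sign follows from the other values, because deviations cancel out within each group. The sides of these correlations are those of the bioC split. The sign of Itgav turned to 0.15 with averaged probe sets, and with arrays left out the gene and its probe set 1452784_at ran from -0.57 to 0.26. With arrays left out, signs also turned for probe sets 1450155_at (-0.016 to 0.47) and 1456498_at (-0.20 to 0.32) of Itga4, 1432296_a_at of Itgav (-0.34 to 0.86), 1421511_at of Itgb3 (-0.51 to 0.46; 0.052 with the bioC block), Itga2 (-0.50 to 0.19) and Itga2b (-0.021 to 0.44). The causes were not tested. Signals near the filter intensity limit Itga5, Itgae in activated cells and the dim probe sets.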
